A study of Mus musculus with 4 samples.

Results

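The genes of LIF and CNTF signalling, their STAT transcription factors and their SOCS inhibitors were examined for SOX2 binding in cortical tissue of wild-type C57BL/6 males aged 2 months. The 9 genes were Lif, Lifr, Cntfr, Stat3, Stat5a, Stat5b, Socs1, Socs2 and Socs3. They were chosen by name, and the 3 neighbouring STAT genes were treated as 1 locus, which gives 7 loci. A SOX2 peak belonged to a locus when its centre lay inside the RefSeq span of a gene or within 50 kb of it. Of 17730, 17628 and 15891 peaks in immunoprecipitated (IP) libraries 1, 2 and 3, these loci held 17, 21 and 18. Chromatin immunoprecipitation with sequencing (ChIP-seq) pulls down the DNA bound by a protein with an antibody and sequences it. The design had 3 IP libraries made with a rabbit antibody to SOX2 and 1 input library without antibody, all from 0.3 g of wild-type cortex. No sample was labelled as injured or as lacking SOX2, and a label that names SOX2 as a transduced factor appears on every sample, the input included, which does not match wild-type tissue. The labels do not tie the IP libraries to separate animals, and every SD and p-value here measures only the spread between libraries, part or all of which can be technical. Peak lists hold no expression values, so the cell types in the tissue could not be checked against markers, and binding in one cell type could not be told apart from binding in another.

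LIF and CNTF are cytokines of the interleukin-6 family. Their receptors, LIFR and CNTFR, act with a shared signalling chain encoded by Il6st, and the complex switches on JAK kinases, which phosphorylate STAT proteins so that these enter the nucleus and act as transcription factors. SOCS proteins are made in response and shut the signal off. In the developing and injured brain this pathway, STAT3 above all, is known for driving astrocyte formation, Gfap expression and reactive gliosis, and SOX2 is a transcription factor of neural stem cells that astrocytes also make.

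Peaks overlapping by at least 1 bp were merged into regions. The loci held 23 regions, of which 14 (60.9%) had a peak in all 3 libraries, 5 in 2 libraries and 4 in 1 library. Over the whole genome 9334 of 27083 regions (34.5%) were found in all 3 libraries. Of the 7 loci, 5 carried a region of all 3 libraries, namely the Socs3, Cntfr, Lif, STAT and Socs1 loci, while Lifr and Socs2 did not. By gene, 7 of the 9 had such a region within reach, where 46.6% of 21631 protein-coding genes did under the same rule. The 3 STAT genes share regions and are not separate observations, and no test was made of this share, because the genes were chosen with earlier results of these data known. Strength is reported as normalized tags, which the authors computed for each peak by scaling its library to 10000000 tags; for a region, the strongest peak of each library counts. At their typical strength the 14 regions resembled the rest, with a median of 7.55 normalized tags against 7.63 over all 9334 regions, and they ran from 4.68 at Stat5a to 23.3 beside Socs3.

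**Figure D1:**
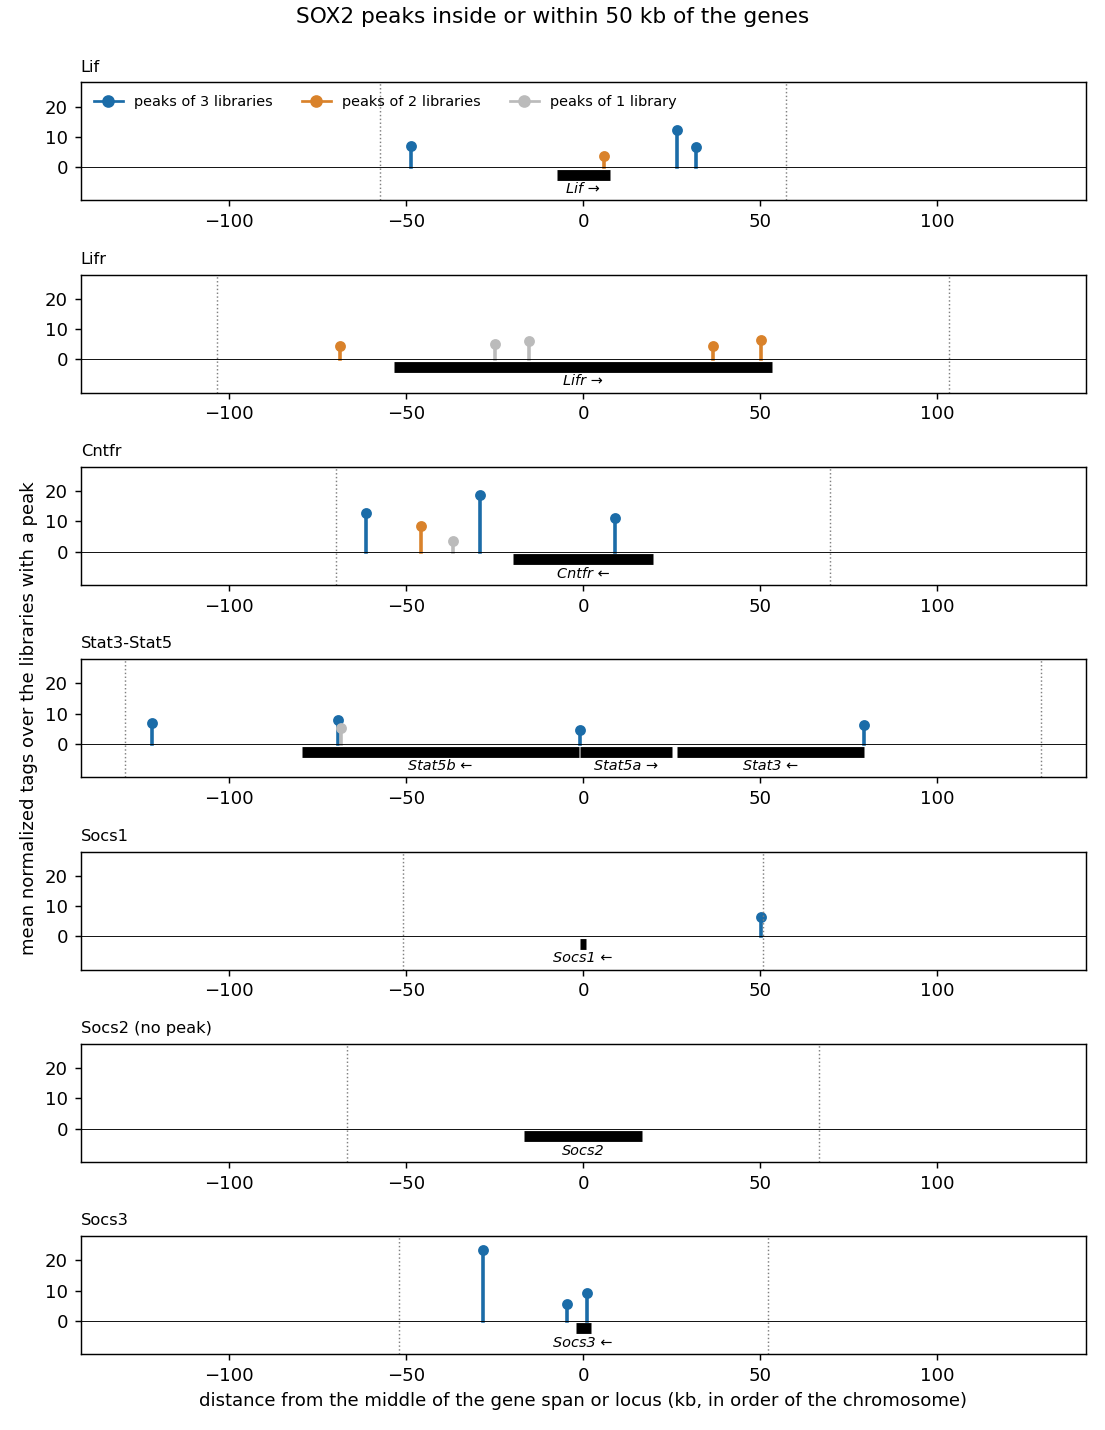
Position of every SOX2 region at the 7 loci, in kb from the middle of the gene span, with the mean normalized tags over the libraries that had a peak on the y axis. Black bars are gene spans, arrows give the strand where it is known, dotted lines mark the 50 kb limit, and colours give the number of libraries with a peak. The tallest regions, 23.3 at Socs3 and 18.6 at Cntfr, stand beside their genes rather than in them, Lifr has no region of all 3 libraries and Socs2 has no peak.

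Among the member genes, 3 had a start site whose promoter window was overlapped by a region of all 3 libraries. These windows are shown because they let the position of the peaks be read against the letters. Each runs from 250 bases before a RefSeq start site to 50 after it, 5′ to 3′ on the strand of the gene, from RefSeq on the GRCm38.p6 build, whose coordinates are those of mm10. Capitals mark every match, on either strand, to the motifs TTCNNNGAA and TTCNNGAA, the palindromic forms that STAT factors are known to bind, and ACAAT and ACAAAG, core forms of the SOX motif. The windows are Socs3 at chr11:117969317-117969616 on the minus strand, Stat3 at chr11:100939491-100939790 on the minus strand and Stat5a at chr11:100859406-100859705 on the plus strand.
Socs3: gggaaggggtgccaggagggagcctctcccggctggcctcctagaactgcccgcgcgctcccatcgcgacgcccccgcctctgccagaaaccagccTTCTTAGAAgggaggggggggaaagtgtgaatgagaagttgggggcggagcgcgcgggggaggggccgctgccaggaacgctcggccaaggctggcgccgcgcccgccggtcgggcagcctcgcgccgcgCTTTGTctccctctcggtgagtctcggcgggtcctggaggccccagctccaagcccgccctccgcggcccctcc
Stat3: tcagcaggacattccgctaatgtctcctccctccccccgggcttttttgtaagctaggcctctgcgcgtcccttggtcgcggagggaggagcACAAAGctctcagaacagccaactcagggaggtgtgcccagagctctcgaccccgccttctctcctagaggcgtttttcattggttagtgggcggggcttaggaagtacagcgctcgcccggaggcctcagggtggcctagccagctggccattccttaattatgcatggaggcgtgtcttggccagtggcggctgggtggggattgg
Stat5a: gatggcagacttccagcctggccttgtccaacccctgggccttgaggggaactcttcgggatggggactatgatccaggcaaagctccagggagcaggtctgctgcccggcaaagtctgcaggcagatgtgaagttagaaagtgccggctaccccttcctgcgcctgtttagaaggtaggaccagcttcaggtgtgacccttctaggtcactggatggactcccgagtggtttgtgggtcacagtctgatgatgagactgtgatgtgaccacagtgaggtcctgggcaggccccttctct

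In the Socs3 window, TTCTTAGAA, a match to TTCNNNGAA, began at position -154 and CTTTGT, the reverse complement of ACAAAG, at position -24, counted from the start site as position 0. The peaks were centred at 23, -22 and 8 in IP libraries 1, 2 and 3, so their centres lay within 50 bases of CTTTGT, while TTCTTAGAA lay outside the merged region, which ran from -98 to 99. The Stat3 window held ACAAAG at position -158, inside the merged region, which ran from -318 to 1, with peak centres at -242, -75 and -183. Only the IP library 3 peak covered this match, which fell in the gap between the peaks of IP libraries 1 and 2. The Stat5a window held no match to these 4 motifs. Its peaks were centred at -240, -260 and -248, at or just beyond the far end of the window, and the region ran from -336 to -164. Each of these regions reached beyond its window, and the part outside was not searched for motifs. Such matches are common. ACAAAG occurred in 18.7% of 32851 promoter windows of all genes and in 20.8% of the 1861 windows overlapped by a region of all 3 libraries, and TTCNNNGAA occurred in 8.30% and 8.06%. The promoter windows listed for Lif, Lifr, Cntfr, Stat5b and Socs1, and a further one of Stat5a, overlapped no region of all 3 libraries, and 5.66% of all windows did. The strongest regions at Socs3, Cntfr and Lif lie away from the promoter windows of these genes, and their sequences were not used here.

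Socs3, the inhibitor that binds the shared receptor chain and blocks STAT3 activation, carried the strongest region of all the members. It lay 26.2 kb beyond the downstream end of the gene, at chr11:117939757-117939927 (mm10), between genes, and Socs3 was the nearest protein-coding gene. It held 23.4, 26.8 and 19.8 normalized tags in IP libraries 1, 2 and 3, with 95% counting intervals of 18.7 to 28.9, 21.4 to 33.0 and 15.8 to 24.6. The mean was 23.3 ± 3.50 (SD, n = 3), above 98.0% of all regions of all 3 libraries. The peaks rested on 85, 87 and 83 tags against 0 input tags in each library. With the input set to 3 tags per library the enrichment was 25.7-fold, 29.4-fold and 21.8-fold, leaving out counting error in the IP tags. The lower bounds of the 95% interval of the ratio were 20.4, 23.4 and 17.3. The authors' own folds of 154, 176 and 131 used an input of 0.5 tags. Tag density in the region was 30.7-fold that of the surrounding 10 kb, on average over the 3 libraries.

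The region on the Socs3 start site, at chr11:117969267-117969464, was weaker, with 11.3, 8.93 and 7.16 normalized tags and a mean of 9.13 ± 2.08 (SD, n = 3). Another region 2.51 kb beyond the downstream end, at chr11:117963470-117963670, held 4.13, 6.77 and 5.73 normalized tags. The far region exceeded both of these in each of the 3 libraries, and its lowest library value was higher than any library value of the start-site region. With 3 libraries a paired exact permutation test cannot give a two-sided p under 0.25, so none was run. Socs3 was the nearest protein-coding gene of all 3 of its regions. By the window alone, whichever gene was nearest, 8.98% of protein-coding genes had 3 or more regions of all 3 libraries inside or within 50 kb.

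Cntfr, which encodes the CNTF-binding subunit of the receptor, had the next strongest region. It lay 9.20 kb beyond the downstream end of the gene, at chr4:41648216-41648379, inside the long noncoding RNA gene Gm12405, and held 21.7, 16.3 and 17.7 normalized tags, a mean of 18.6 ± 2.80 (SD, n = 3). Its highest library value overlapped the lowest of the far Socs3 region. Enho, which encodes the secreted peptide adropin, was nearer, at 8.00 kb, so the region would be given to Enho and not to Cntfr by the nearest-gene rule. A region inside Cntfr itself, at chr4:41686171-41686340, held 11.3, 12.6 and 10.0 normalized tags (11.3 ± 1.30, SD, n = 3) and lay 2.92 kb downstream of the nearest listed start site. It stood out over its surroundings, with a mean tag density 30.0-fold that of the 10 kb around it. The median over all regions was 9.08-fold. Another Cntfr region, 41.6 kb beyond the downstream end at chr4:41615824-41616045, lay inside Dnaic1, a gene for an axonemal dynein chain, and held 13.2, 10.8 and 14.8 normalized tags. A further one, also in Dnaic1, had peaks of 8.62 and 8.12 normalized tags in IP libraries 2 and 3 and none in IP library 1.

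Lif, which encodes the cytokine itself, carried 3 regions of all 3 libraries, all outside the gene. The strongest lay 19.2 kb beyond its downstream end, at chr11:4291604-4291836, inside the noncoding RNA gene Gm11958, and held 13.5, 13.5 and 9.79 normalized tags, a mean of 12.3 ± 2.14 (SD, n = 3). Lif was the nearest protein-coding gene of this region. Its peaks in IP libraries 1 and 3 were offset, and it was not counted when an overlap of 0.5 of each peak's length was demanded, which left 6.98 normalized tags as the strongest value at Lif. A second region in Gm11958, 24.5 kb from Lif, held 6.88, 6.77 and 6.21 normalized tags. It was close to the authors' limit of 4-fold over the input in each library, with 25, 22 and 26 IP tags against 5 input tags, or 4.53-fold, 4.46-fold and 4.09-fold. The upstream region, 41.2 kb before Lif and 0.879 kb from Tbc1d10a, a gene for a RAB GTPase-activating protein, held 7.71, 4.62 and 8.60 normalized tags, the widest ratio of highest to lowest library among the 14, at 1.86. Inside Lif a weak region was found in IP libraries 2 and 3, with 4.31 and 3.34 normalized tags.

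Lifr, which encodes the LIF receptor, is the longest of the 9 genes at 107 kb, and no region there was found in all 3 libraries. The 5 regions in its window each had a peak in 1 or 2 libraries. Near its downstream end IP libraries 2 and 3 had 6.16 and 6.45 normalized tags, and another region in the downstream part of the gene had 4.92 and 4.06. Upstream of the gene, IP libraries 1 and 2 had 4.13 and 4.62. A peak of 5.23 occurred in IP library 2 and one of 6.06 in IP library 1, each alone. The median peak held 6.06, 6.16 and 5.25 normalized tags in IP libraries 1, 2 and 3 and the smallest 3.30, 3.08 and 2.87, so the Lifr peaks ran from the lower part of this range to the median or, in IP library 3, above it. A missing peak shows only that it did not pass the authors' threshold at this depth. The nearest region of all 3 libraries lay 102 kb from Lifr. With peaks of at least 2 libraries required, Lifr had 3 regions, and 58.3% of protein-coding genes had 1 or more under that rule.

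The STAT locus carried 4 regions of all 3 libraries, all at modest strength. STAT3 carries the signals of LIF and CNTF, and STAT5A and STAT5B are best known downstream of growth hormone and prolactin. The region inside Stat5b, at chr11:100790895-100791129, held 8.26, 9.54 and 6.45 normalized tags, with 30, 31 and 27 IP tags against 6, 6 and 4 input tags. Another, 42.4 kb from Stat5b at chr11:100738215-100738378, held 9.36, 6.46 and 5.25 and reached the start site of Rab5c, a gene for an endosomal GTPase. The region on the promoter of Stat3, at chr11:100939539-100939858, held 6.88, 5.54 and 6.21 normalized tags, a mean of 6.21 ± 0.670 (SD, n = 3). Its centre lay 0.104 kb outside the Stat3 span, inside the long noncoding RNA gene Gm46295. This region was the only 1 of the 14 in which no base was common to the peaks of all 3 libraries, as in 3.00% of all such regions. The IP library 1 peak began at 100939706, past the end of the IP library 2 peak at 100939691. The weakest region, at chr11:100859320-100859492, spanned the annotated start of Stat5a and lay beside the 5′ end of Stat5b, which runs the other way. It held 4.40, 4.62 and 5.01 normalized tags and rested on 16, 15 and 21 IP tags against 3 input tags in each library, and it ranked 8892 of all 9334 regions by strength.

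Socs1 and Socs2 had fewer peaks than Socs3 in each library. Socs1, which inhibits JAK kinases directly, had 1 region of all 3 libraries, with 7.43, 6.16 and 5.73 normalized tags, at chr16:10834915-10835103. It lay 49.5 kb upstream of Socs1, just inside the 50 kb limit, and beside Rmi2, a gene for a DNA repair protein. The next region of all 3 libraries was 125 kb away. Socs2, an inhibitor of growth hormone signalling, had no peak in any of the 3 libraries within 50 kb, where 62.8%, 63.2% and 60.9% of protein-coding genes had 1 or more in IP libraries 1, 2 and 3. Its nearest region of all 3 libraries lay 97.5 kb from the gene and held 10.8 ± 1.11 normalized tags (SD, n = 3).

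**Figure D2:**
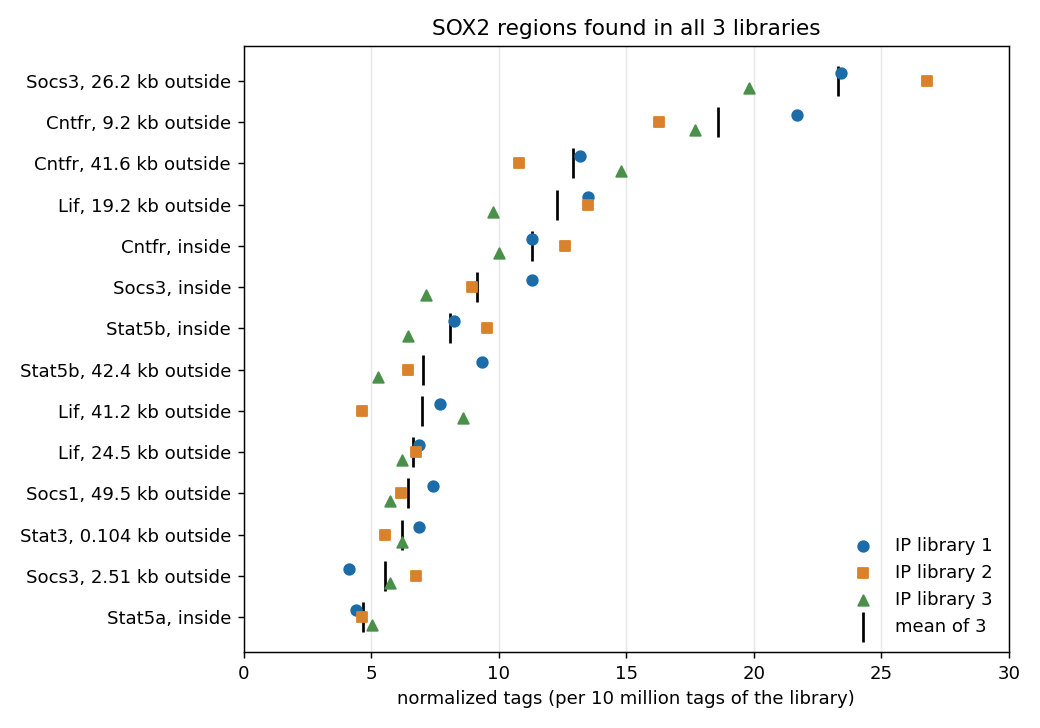
Normalized tags of the 14 regions of all 3 libraries, ordered by mean, with 1 symbol per IP library and a black bar at the mean. Distances are from the region's centre to the span of the named gene. The far Socs3 region and the Cntfr region at 9.20 kb stand apart on the right, with library values of 16.3 or more, while the STAT regions lie at 9.54 or less.

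Ordered by mean strength, the far Socs3 region came first, followed by the Cntfr region at 9.20 kb, and both were above the next, the Cntfr region in Dnaic1, in every library. Of the 13 neighbouring pairs in this order, 12 overlapped in their library values, and the step from the Cntfr region at 9.20 kb to the next was the exception. The ranks below it therefore do not separate neighbours beyond the spread between libraries. Of the 14 regions, 4 lay inside a member gene and 10 outside. Of these 10, 7 lay on the downstream side of the nearest member and 3 on the upstream side, where 49.0% of the 10563 pairs of a gene and an outside region within 50 kb were downstream over all genes of known strand. A member was the nearest protein-coding gene for 9 of the 14, and the other 5 lay nearer to Enho, Dnaic1, Rab5c, Tbc1d10a and Rmi2. By nearest gene alone, 22.5% of protein-coding genes had a region of all 3 libraries. Distance alone cannot tell which gene a region regulates.

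The 3 IP libraries were compared with each other at each region by an exact multinomial test of the tag counts, given the library totals, over all 9334 regions with Benjamini-Hochberg adjustment. At an adjusted p under 0.05, 0 of the 14 regions differed between libraries, where 0.0107% of all regions did, and 0 of the 14 had an unadjusted p under 0.05, where 11.7% did. The smallest adjusted p among them was 0.522 in this exact test, at the Stat5b region near Rab5c, whose highest library value was 1.78 times its lowest. At the upstream Lif region that ratio was 1.86 (adjusted p = 0.543, same exact test) and at the far Socs3 region 1.35 (adjusted p = 0.592, same exact test). With 15 to 87 tags per peak, counting error was wide, and these p-values do not show that the libraries were alike. IP library 3 had the lowest value in 8 of the 14 regions, and in 60.1% of all regions of all 3 libraries.

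**Figure D3:**
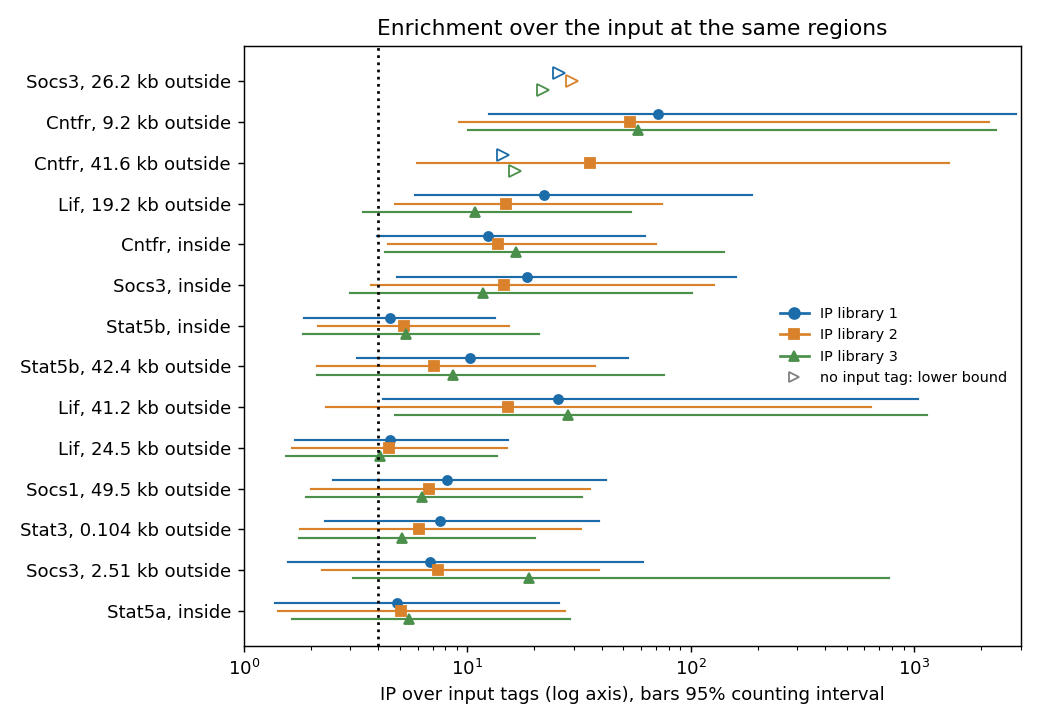
Tags in the IP library over tags in the input at the 14 regions, on a log axis. Bars give the 95% counting interval of the ratio. Open triangles mark values where the input had no tag. They give the ratio with the input set to 3 tags, not the lower bound of the 95% interval. The dotted line is the authors' limit of 4-fold. The Socs3 far region has triangles at 21.8 to 29.4. The Lif region at 24.5 kb, the region inside Stat5b and the Stat5a region sit near 5-fold.

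Among the regions with input tags in all 3 libraries, the mean of the authors' fold over the input was highest at the Cntfr region at 9.20 kb and lowest at the Lif region at 24.5 kb, while the far Socs3 region has only lower bounds. Over the 14 regions the authors' fold over the input had a median of 12.6, against 15.3 over all regions. The input was thin, with 0 to 6 tags per region, and the same input served all 3 IP libraries, so the folds of a region are not independent. In all 42 values of a region in a library the lower bound of the 95% interval of the ratio was above 1, the lowest being 1.38 at Stat5a. Each peak had already passed the authors' limit of 4-fold over this input, so these bounds are no separate evidence of enrichment. In 5 of the 42 the input had no tag, at the far Socs3 region and, in IP libraries 1 and 3, at the Cntfr region in Dnaic1. The focus ratio, the fraction of tags placed as a single binding centre predicts, was highest inside Cntfr, at a mean of 0.875. It was lowest at the Stat3 promoter, at a mean of 0.690, with 0.596, 0.718 and 0.756 in IP libraries 1, 2 and 3.

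**Figure D4:**
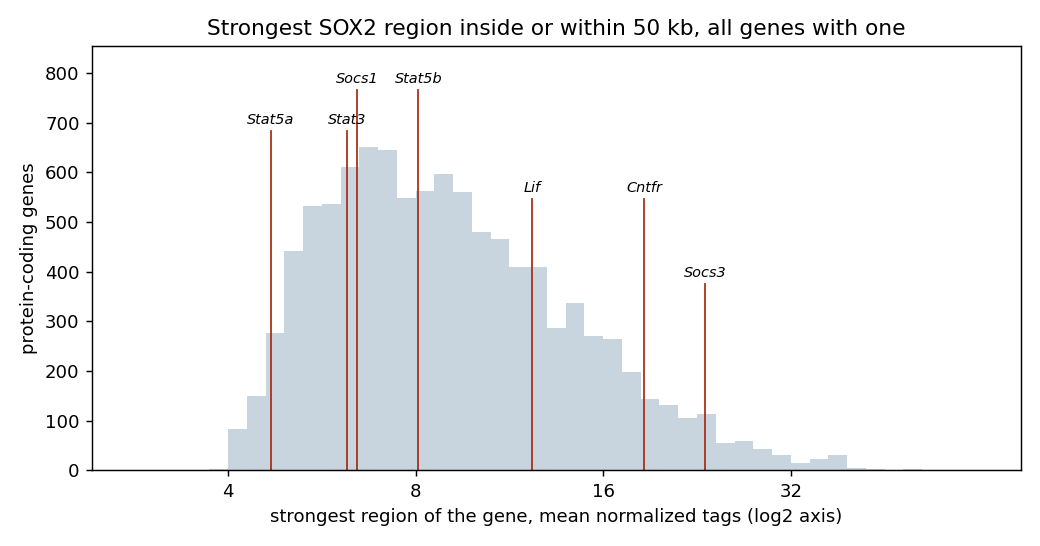
Histogram of the strongest region of all 3 libraries inside or within 50 kb of each of the 10075 protein-coding genes with one, in mean normalized tags on a log2 axis. Lines mark the member genes. Socs3 at 23.3 and Cntfr at 18.6 lie in the right tail, Lif at 12.3 right of the middle, and Stat3 at 6.21 and Stat5a at 4.68 on the left.

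Set among all genes with a region of all 3 libraries, Socs3 was above 96.8% of the 10075 genes, Cntfr above 92.8% and Lif above 75.5%. Stat5b was above 45.2%, Socs1 above 25.1%, Stat3 above 22.0% and Stat5a above 2.98%. Among the genes whose strongest region was most like the far Socs3 region, by Euclidean distance of log2 normalized tags over the 3 libraries, were Sox8 at a distance of 0.086, Ube2d3 at 0.11, and Phactr3 and 6330403K07Rik at 0.12 each. Sox8, a SOX family gene of glia, held 24.5, 26.5 and 19.1 normalized tags in IP libraries 1, 2 and 3. This likeness covers 3 libraries that all scale with strength, and it is a description only.

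The wider pathway was described with lists of its other genes, counted by the same window and beside the same 46.6% of all protein-coding genes. Of the other ligands of the family, 5 of 7 had a region of all 3 libraries. The strongest, at Ctf1 (cardiotrophin), held 17.1 ± 2.78 normalized tags (SD, n = 3) but was nearer to Fbxl19, and that of Il11 (15.3 ± 0.608) was nearer to Kmt5c. The best region of Cntf, the ligand of CNTFR, lay 3.58 kb outside the gene with 5.78, 7.08 and 5.97 normalized tags. Osm, which encodes oncostatin M and adjoins Lif, had 2 regions. The strongest lay at 43.8 kb, with 14.0, 9.85 and 12.4 normalized tags, and was nearer to Tbc1d10a. The other was the upstream region already counted for Lif. Clcf1 and Il6 had none of all 3 libraries.

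Of the other receptors, 4 of 10 had a region. Ifnar1, a subunit of the type I interferon receptor, had the strongest, at its edge with a mean of 14.9 ± 1.01 normalized tags (SD, n = 3). The shared signalling chain Il6st and the oncostatin receptor Osmr had no region of all 3 libraries, nor of any 2. Of the 4 JAK kinases, only Tyk2 had one, with 8.81, 4.92 and 4.06 normalized tags and nearer to Raver1, while Jak1 and Jak2 had regions in 2 libraries and Jak3 had none.

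Of the other STAT genes, Stat2 and Stat6 each had a region of all 3 libraries within 50 kb. Those of Stat2 (9.52 ± 0.402, SD, n = 3) and Stat6 (5.82 ± 1.57) lay nearer to Pan2 and Lrp1. Of the other inhibitors, 8 of 13 had a region. Ptpn11, which encodes the phosphatase SHP2 recruited by the shared chain, had the strongest, with 15.7, 22.8 and 18.6 normalized tags at 28.8 kb and nearer to Hectd4. Socs4 had a region at its edge with 4.13, 4.92 and 5.49 normalized tags, Socs7 had one with 11.6 ± 2.06 nearer to Arhgap23, and Socs5, Socs6 and Cish had none of all 3 libraries. The far Socs3 region, at 23.3 normalized tags, was stronger than the best region of every other gene named from these lists.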

How the data were processed

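SOX2 ChIP-seq of mouse cortex comprised 3 IP libraries and 1 input. Per the submitters' processing notes, Bowtie 1.0.0, HOMER 4.7 and mm10 were used. HOMER's findPeaks was run by the authors in factor mode on each IP library by itself, per the file headers; a peak needed 4-fold over the input and over its local 10 kb and an FDR of 0.001. The deposited p-values are the authors' Poisson values, limited to 0.0001 per the file headers. Strength is the authors' normalized tag signal; the tags in peaks were deposited as counts for IP library 2 and as a scaled signal for the others; folds are the authors' ratio, the focus ratio their fraction, and the deposited score was not used. IP libraries 1, 2 and 3 held 36330529, 32492927 and 41875666 tags. The input total, about 32939587 tags, was computed from the authors' scaling.

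Tags per peak were recovered as normalized tags times the library total over 10000000, and all values below 10 normalized tags were within 0.1 of a whole number. Intervals are exact Poisson for tags and exact Clopper-Pearson for ratios at 95%, cover counting error only, and peak calling selects high values. Gene spans, start sites and strands came from RefSeq tables of GRCm38.p6, leaving out chromosomes Y and MT. No genome sequence was used here. Alternatives were stricter peaks, other overlap rules, other windows and leaving out each library. Named genes are the members, pathway genes with a region, the nearest genes of member regions and the 5 genes most like the strongest region; pathway genes without a region were also named after their values were seen. A few genes that this rule names are not reported here. Members and lists were chosen with earlier results of these data known. The exact multinomial test was tested on simulated data. Software was scipy 1.17.1, pandas 2.3.3 and numpy 2.4.6 under Python 3.11.15, with figures from matplotlib 3.10.9.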

Additional observations from a re-analysis of the deposited data

How the results depend on the processing

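The 5 loci and 14 regions rest on the window and the peak threshold. With peaks of at least 8-fold over the input, 3 loci (Socs3, Cntfr and Lif) had a region, with 7 regions in all. The share of all protein-coding genes with a region also fell, from 46.6% to 32.9% (7118 genes). With a window of 10 kb there were 3 loci, 7 regions, 5712 protein-coding genes and 20 pathway genes, against 36 pathway genes with 50 kb. With the gene span alone there were 3 loci, 4 regions, 3201 genes and 10 pathway genes, and with the nearest gene 9 regions, 4869 genes and 18 pathway genes. With the stronger 0.5 of peaks, 20 of the 61 pathway genes had a region, beside 32.1% of all protein-coding genes (6941 genes). The strongest value at Socs3 fell to 9.13 with 10 kb or the gene span alone, that at Cntfr to 11.3 with the gene span alone or the nearest gene. Without 1 library, 5 to 6 loci, 14 to 18 regions, 10857 to 11262 genes and 36 to 41 pathway genes had a region, and Lifr gained regions without IP library 1 or 3. Over all regions the exact test between libraries called 1; it called 22 with at least 8-fold peaks, 23 with the stronger 0.5 of peaks, 0 with shares taken from the tags of the regions, and 19, 3 and 0 without IP library 1, 2 and 3; the cause was not tested, and 0 member regions were called under these alternatives. Requiring a base common to all 3 libraries, chosen after seeing the data, left 13 regions. No paired analysis was possible because there was 1 input library and the IP libraries formed 1 group. Depth limits weak regions: a region of 5 normalized tags rests on about 16 to 21 tags.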

Other observations

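Genes that STAT factors are known to switch on were listed as well, and 7 of 14 had a region of all 3 libraries within 50 kb, beside 46.6% of all protein-coding genes. Bcl2l1, which encodes the survival protein BCL-XL, carried 5 regions, the strongest inside the gene with 18.2, 20.3 and 14.6 normalized tags in IP libraries 1, 2 and 3. Fos, an immediate early transcription factor, had a region at its edge with 14.3, 15.4 and 14.6 normalized tags. Gfap, the astrocyte filament gene, had 8.53, 6.77 and 7.88 normalized tags at 1.38 kb, and Junb had 8.26, 7.39 and 9.31 at 1.24 kb. Bcl6, a transcriptional repressor, carried 3 regions, the strongest of 6.09 ± 0.587 normalized tags (SD, n = 3). The region of Mcl1 lay 31.6 kb outside the gene and nearer to Ensa. That of Cebpd lay 0.338 kb outside the gene but nearer to Spidr. Myc, Ccnd1, Bcl3, Irf1, Icam1 and Fgg had no region of all 3 libraries, and Pim1 had one in 2 libraries. No test was made of this list.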
